A study of Homo sapiens with 6 samples.

Results

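The sites described here carried an H3K27me3 peak in 1 of a pair of related small cell lung cancer (SCLC) lines and an H3K27ac peak in the other, with neither peak found in both lines. They were chosen by the presence and overlap of peaks. An H3K27me3 peak of H69 entered when no H69M H3K27me3 peak overlapped it and when it overlapped, by 1 bp or more, an H69M H3K27ac peak that no H69 H3K27ac peak overlapped. The same rule was then run with the lines swapped. On chromosomes 1 to 22 and X it took 753 of 59491 H3K27me3 peaks. In 348 of them H3K27me3 lay in H69 and H3K27ac in H69M, at 282 H3K27ac peaks, and these are called sites methylated in H69. In the other 405 H3K27me3 lay in H69M and H3K27ac in H69, at 250 H3K27ac peaks, called sites methylated in H69M.

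H69 is the established SCLC line NCI-H69, and the labels say of H69M that it was derived from H69. Each line gave 1 library from immunoprecipitation with the H3K27ac antibody ab4729 and 1 with the H3K27me3 antibody clone C36B1, and neither line carries a named treatment. The 2 inputs are not used here. The series concerns the immunogenicity of SCLC cells, and the comparison of the lines asks where their chromatin differs. With 1 library per line and mark no difference between the lines has a replicate check, and no test between them was made.

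Lysine 27 of histone H3 can be acetylated or methylated, but not both at once on the same histone tail. Acetylation is placed by the enzymes EP300 and CREBBP and is found at active promoters and enhancers. Trimethylation is placed by EZH1 or EZH2 in Polycomb repressive complex 2 and is found at silenced genes, often those of development or of other cell types. A site with one mark in the parent line and the other in its derivative is therefore a place where peaks of opposite kinds were called in related cells.

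The 4 lists held 38255 H3K27ac peaks in H69 and 51091 in H69M, and 21638 and 37853 H3K27me3 peaks. Each peak carries a score given by the authors, whose definition is not given in the sources used here. The score begins at about 50 and piles up at 3100 in the H3K27ac lists, and it is used here to describe and rank peaks within a list. Read depth is unknown, so a missing peak is not proof that a mark was missing. Sites are given by their hg19 coordinates. They were assigned to no gene, and no sequence is printed, because no genome or annotation of that build was at hand.

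Sites methylated in H69 took up 2.39% of the 14587 H69-only H3K27me3 peaks (348 peaks, 95% exact binomial interval 2.14 to 2.65). Seen from the other mark, they took up 1.14% of the 24739 H3K27ac peaks found only in H69M. Sites methylated in H69M took up 1.32% of the 30681 H69M-only H3K27me3 peaks (405 peaks, interval 1.20 to 1.45) and 2.90% of the 8623 H3K27ac peaks found only in H69. The shares are low for both marks in both directions, so most peaks that 1 line had alone had no opposite peak in the other line. With the longer list of each mark cut by score to the length of the shorter, which also removes its weakest peaks, the shares of H3K27me3 peaks became 2.05% and 2.11%, and those of H3K27ac peaks 1.71% and 2.06%. Of the members themselves, 33 of 348 and 138 of 405 had an H3K27me3 score of 100 or more. When peaks under 100 were dropped from both H3K27me3 lists before the rule was run, 74 and 176 peaks were exchanged, since peaks that had been shared with a weak peak of the other line then counted as line-only. These counts follow from the rule and are a description, and their intervals cover counting error only.

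At the edge of the rule the overlaps were a few bases. The shortest overlap among sites methylated in H69 was 4 bp, at chr19:8747248-8747431 with an H3K27me3 score of 65.6, and the nearest H3K27me3 peak left out lay 20 bp from its H3K27ac peak, at chr6:72129079-72129253 with a score of 67.2. Among sites methylated in H69M the shortest overlap was 3 bp, at chr16:2867522-2867823 with a score of 109.2, and the nearest peak left out directly adjoined its H3K27ac peak, at chr12:52702877-52703018 with a score of 72.1. Few members lay this close to the limit. The overlap was under 50 bp for 15 of 348 and 19 of 405 H3K27me3 peaks, and the whole H3K27me3 peak lay inside the H3K27ac peak for 282 (81.0%) and 306 (75.6%).

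The methylated pieces were short. Their median width was 183 bp in H69 and 182 bp in H69M, whereas the H3K27ac peaks over them had medians of 1488 bp and 944.5 bp. The centre of the H3K27me3 peak lay in the central 50% of the H3K27ac peak for 166 of 348 peaks methylated in H69 and for 217 of 405 methylated in H69M, so the methylated pieces were spread over the acetylated peaks rather than gathered at their edges.

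Scores of the methylated pieces differed between the directions. The median H3K27me3 score was 67.9 at sites methylated in H69, beside 65.6 for all H69-only H3K27me3 peaks, and 223 of 348 peaks (64.1%) scored under 75, beside 73.9%. At sites methylated in H69M the median was 80.0, beside 62.3 for all H69M-only H3K27me3 peaks, and 180 of 405 (44.4%) scored under 75, beside 70.8%. A score of 200 or more was reached by 2 of the 348 (0.575%) and by 49 of the 405 (12.1%), beside 0.178% and 1.72% of all line-only peaks. The H3K27ac scores ran the other way, with medians of 377 in H69M at sites methylated in H69 and 134 in H69 at sites methylated in H69M, beside 109 and 78.1 over all line-only H3K27ac peaks. Scores come from lists of different size and unknown depth, so their levels in the lines cannot be set against each other as amounts of the mark.

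**Figure D1:**
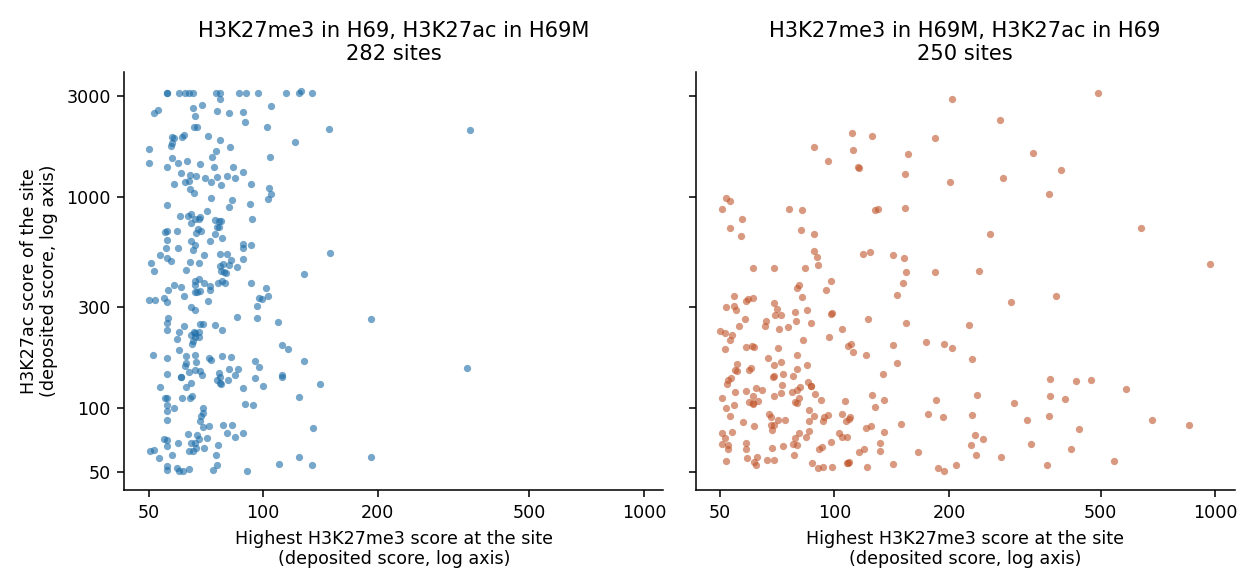
Each point is 1 site, placed by the highest H3K27me3 score among its exchanged peaks (x axis, log scale) and by its H3K27ac score in the other line (y axis, log scale). Sites methylated in H69 (left, 282) keep to H3K27me3 scores up to 350 with H3K27ac scores up to the ceiling near 3100, and sites methylated in H69M (right, 250) reach H3K27me3 scores up to 970.

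Across sites the scores of the marks showed little relation. Spearman's rho between the highest H3K27me3 score and the H3K27ac score was 0.07 over the 282 sites methylated in H69 and 0.03 over the 250 sites methylated in H69M, and Pearson's r of the log2 scores was 0.05 and 0.11. Leaving out H3K27ac scores of 3100 or more gave rho of 0.04 over 267 sites and 0.02 over 249. All points of a direction share the same pair of libraries, and these values describe them only. Sites where both marks were strong were few. An H3K27me3 score of 100 or more together with an H3K27ac score of 1000 or more was found at 12 of 282 sites methylated in H69 and at 16 of 250 sites methylated in H69M. Sites with an H3K27ac score of 1000 or more numbered 71 and 18 in all. Strong H3K27me3 was thus found at 12 of those 71 sites methylated in H69 and at 16 of those 18 methylated in H69M. The low rho over all sites methylated in H69M does not describe these 18. Over all pieces, 33 of 348 (9.48%) and 138 of 405 (34.1%) scored 100 or more. A site counts by its best piece, and the share over all sites is not given here. The H3K27me3 scores come from different lists, so this limit does not compare the directions.

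Acetylated peaks of high score held an exchanged peak more often than weak ones. Among H3K27ac peaks found only in H69M, 46 of 11287 with a score of 50 to 100 were exchange sites (0.408%, interval 0.298 to 0.543), then 0.859% at 100 to 300, 2.44% at 300 to 1000, and 71 of 882 at 1000 or more (8.05%, interval 6.34 to 10.1). Among H3K27ac peaks found only in H69 the same classes gave 1.55%, 4.08%, 10.1% and 18 of 58 (31.0%, interval 19.5 to 44.5). Strong H3K27ac peaks are also longer, with median widths from 632 bp to 2732 bp over the classes in H69M and from 567 bp to 2341 bp in H69, and a longer peak meets more H3K27me3 peaks. Counted per megabase of H3K27ac peak, the centres of H3K27me3 peaks found only in the other line still rose from class to class, with 5.89, 8.80, 16.4 and 40.6 per Mb in the H69M peaks and 27.1, 61.3, 111 and 329 per Mb in the H69 peaks. The last of these rests on 49 centres in 0.149 Mb.

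H3K27me3 peaks of high score were exchanged more often as well. In H69M, 93 of 13579 line-only H3K27me3 peaks with a score of 50 to 60 were exchanged (0.685%), then 1.07%, 1.63% and 2.86% in the classes from 60, 75 and 100, and 49 of 527 with a score of 200 or more (9.30%, interval 6.96 to 12.1). In H69 the shares were 1.89%, 2.19%, 3.12% and 3.71%, and the class of 200 or more held 2 of 26 (7.69%, interval 0.946 to 25.1), too few to place it. Median widths rose alongside, from 130 bp to 532 bp in H69M and from 178 bp to 546 bp in H69.

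**Figure D2:**
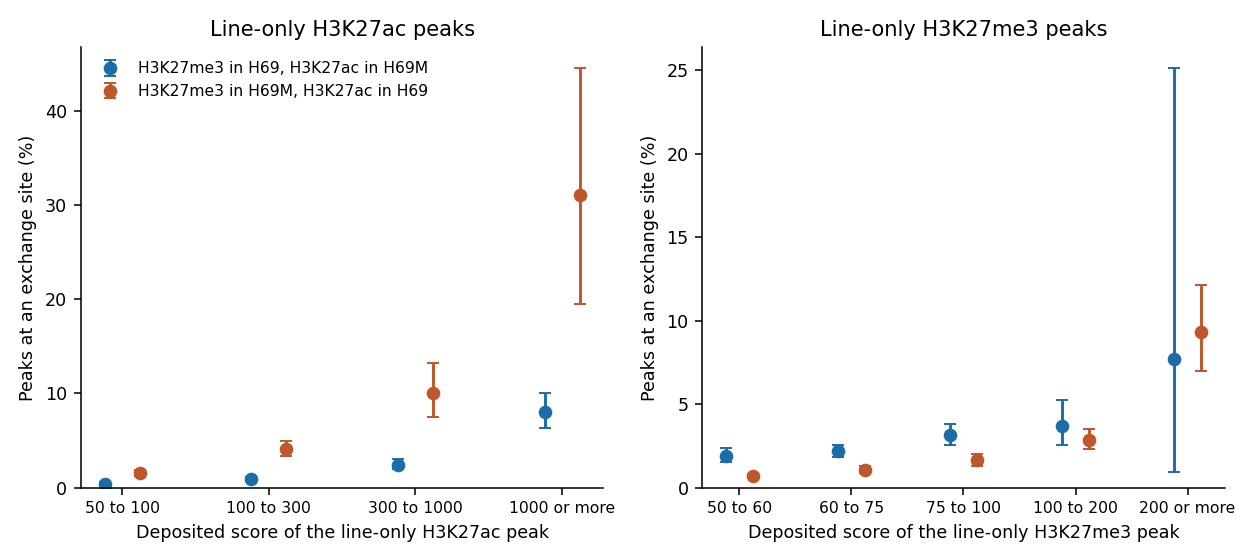
Share of line-only peaks that lie at an exchange site (y axis, percent), by deposited score of the H3K27ac peak (left) and of the H3K27me3 peak (right); points are shares and bars are exact 95% binomial intervals. In the left panel the share climbs to 8.05% and 31.0% in the class of 1000 or more, and in the right panel it climbs to 9.30% for H3K27me3 peaks of H69M.

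Sites methylated in H69 were led by chr18:12307585-12309522. This H69M H3K27ac peak scored 2065 and held an H69 H3K27me3 peak of 1042 bp with a score of 349.9, the highest in this direction. The 20 kb centred on it held 3.86 kb of H69 H3K27me3, 1.37 kb of H69M H3K27me3, 1.94 kb of H69M H3K27ac and no H69 H3K27ac. The H69M H3K27ac peak also overlapped an H69M H3K27me3 peak, so both marks were called there in H69M.

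Next by H3K27me3 score came chr5:42950816-42951739, with an H3K27me3 score of 343.7 in H69 and a weak H3K27ac score of 154.6 in H69M, and H69M H3K27me3 lay 0.312 kb from the exchanged pieces. A site at chr11:2905257-2906848 scored 192.4 for H3K27me3 and 263.3 for H3K27ac, an H69 H3K27ac peak lay only 0.422 kb from it, and H69M H3K27me3 overlapped the H69M H3K27ac peak. At chr6:100054526-100055367 the H3K27me3 score was 191.4 and the H3K27ac score 59.2, near the lowest in the list. At chr11:13235977-13238946 a score of 149.2 in H69 faced one of 2078 in H69M. The nearest H69M H3K27me3 peak was 38.7 kb away there, and the nearest H69 H3K27ac peak 37.0 kb. The H69 H3K27me3 peak covered only 450 bp of this H69M H3K27ac peak.

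The highest H3K27ac score over an H69 H3K27me3 peak was 3161, at chr6:2970646-2972558. This H69M peak held 3 H69 H3K27me3 peaks, the best with a score of 126.0, which together covered 908 of its bases. The 20 kb around it held no H69 H3K27ac and no H69M H3K27me3. At chr11:65666100-65668597 the H3K27ac score was 3100 and 3 H69 H3K27me3 peaks reached 134.5, but H69M H3K27me3 also overlapped this H69M H3K27ac peak, 0.107 kb from the nearest exchanged piece. Further H69M peaks with a score of 3100 lay at chr2:201170583-201172883, where 1 H69 H3K27me3 peak scored 75.4, and at chr2:223182552-223186230, where 2 reached 90.1. The nearest H69M H3K27me3 was 871 kb from the first and 2650 kb from the second.

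Among the H69M peaks at the ceiling were also chr3:185540523-185544049 with 3 H69 H3K27me3 peaks up to 96.9, chr17:47072427-47076455 with 2 up to 124.2, and chr22:37955766-37958728 with 1 of 115.1. At these 3 sites, too, H69M H3K27me3 also overlapped the H69M H3K27ac peak. The longest H3K27ac peak among them, chr14:23444546-23452643, held 1 H69 H3K27me3 peak of 62.4 and overlapped H69M H3K27me3 as well. A very strong acetylated peak could thus sit over a methylated piece of low score.

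A few H69M H3K27ac peaks held several H69 H3K27me3 peaks. Those at chr11:67329671-67332271 and chr19:16435129-16436560 held 4 each, none scoring above 77.7, and 11 sites held 3. On chromosome 19 the neighbouring sites chr19:41115302-41116112 and chr19:41118823-41121163 had H3K27ac scores of 54.0 and 1546 over H69 H3K27me3 scores of up to 134.5 and 104.2. No H69 H3K27ac peak lay within 10 kb of the centre of either of them.

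Sites methylated in H69M were led by chr20:23028055-23030367. This H69 H3K27ac peak scored 478.5 and held 2 H69M H3K27me3 peaks with scores of 969.5 and 642.4, which covered 2209 of its bases. The 20 kb around it held 2.31 kb of H69 H3K27ac and 3.18 kb of H69M H3K27me3, with neither mark in the opposite line. The next by H3K27me3 score was chr5:113697805-113698405, with 854.1 in H69M over an H3K27ac score of 83.1 in H69, and H69 H3K27me3 lay 0.648 kb away. A similar pair of values, 683.5 over 88.4, was found at chr21:45875251-45876194, where 1.30 kb of H69 H3K27me3 lay in the surrounding 20 kb beside 4.66 kb in H69M. At chr1:228870754-228871950 both marks were well above the start of the lists, with 639.7 for H3K27me3 and 711.9 for H3K27ac, and H69 H3K27me3 lay 3.09 kb away.

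The highest H3K27ac score was 3100, at chr5:37837618-37841289, where 3 H69M H3K27me3 peaks reached 491.2. An H69 H3K27me3 peak overlapped the edge of this H69 H3K27ac peak, so it was not free of H3K27me3 in H69. At chr18:45934302-45937198 the H69 H3K27ac score of 2888 faced 4 H69M H3K27me3 peaks up to 203.0, with no peak of the opposite kind within 10 kb in either line. At chr14:96341877-96343996 the scores were 2309 and, over 4 peaks, up to 271.4. At chr1:44870801-44873546 they were 1604 and 332.5, with the nearest H69 H3K27me3 317 kb and the nearest H69M H3K27ac 8.55 kb from the site.

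Other strong H69 peaks lay in gaps far from any opposite peak. At chr5:11384453-11385627 an H69 H3K27ac score of 1928 faced H69M H3K27me3 of up to 125.6, with the nearest H69M H3K27ac 622 kb and the nearest H69 H3K27me3 537 kb away. At chr2:45395786-45397436 the scores were 1593 and 156.2, and the nearest H69 H3K27me3 was 1130 kb away. The sites with most methylated pieces were chr6:150463741-150465599 and chr7:45613384-45615727, with 5 H69M H3K27me3 peaks each, reaching 393.3 and 200.8 under H3K27ac scores of 1329 and 1167. Neither had an H69M H3K27ac or H69 H3K27me3 peak within 10 kb of its centre.

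**Figure D3:**
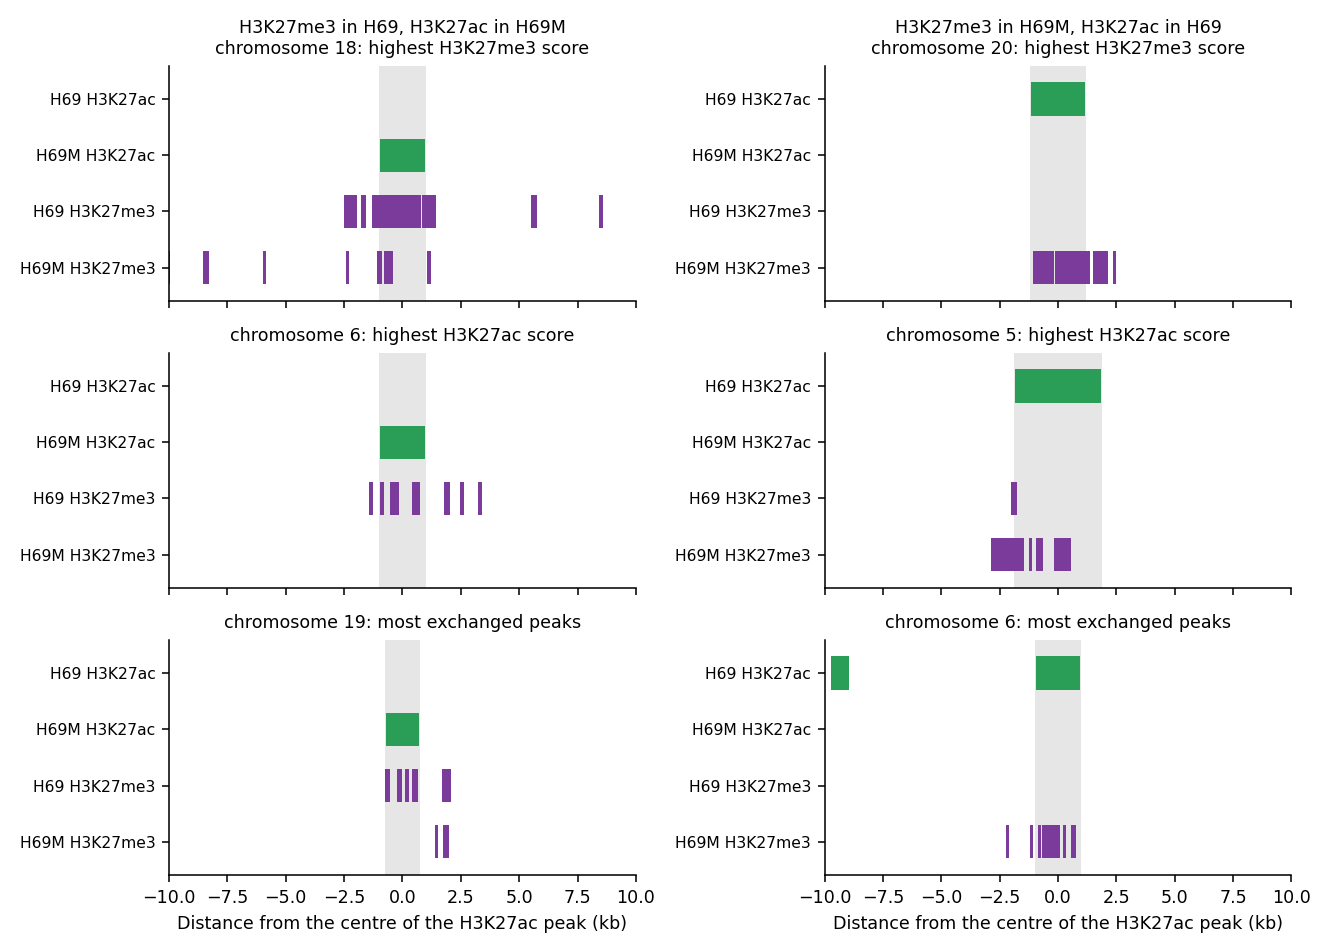
Peaks of the 4 libraries within 10 kb of the centre of the H3K27ac peak (grey band) at 3 sites per direction, chosen for the highest H3K27me3 score, the highest H3K27ac score and the most exchanged peaks; the x axis is distance in kb. On chromosome 20 (upper right) only H69 H3K27ac and H69M H3K27me3 appear, whereas on chromosome 18 (upper left) H69M H3K27me3 is also seen under the H69M H3K27ac peak.

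Several methylated pieces in 1 acetylated peak were more frequent at sites methylated in H69M, where 100 of 250 sites held at least 2 (40.0%), than at sites methylated in H69, with 51 of 282 (18.1%). The median H3K27ac score was 317 with 1 piece, 918 with 2, 1546 with 3 and 611 with 4 at sites methylated in H69, and 108, 193, 392 and 326 at sites methylated in H69M, so it was highest with 3 pieces among these and not with 4. The groups with 4 pieces held 2 and 14 sites, and the 2 sites with 5 pieces had a median of 1248. Median widths of the H3K27ac peak were 1355 bp with 1 piece, 2824 bp with 3 and 2016.5 bp with 4 at sites methylated in H69, and 808.5 bp, 1437.5 bp and 1684.5 bp at sites methylated in H69M. The H69M H3K27me3 list is the longer one, and its part in the difference between the directions was not tested.

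Not every site was a clean swap. The H3K27ac peak also overlapped an H3K27me3 peak of its own line at 83 of 282 sites methylated in H69 (29.4%, interval 24.2 to 35.1), beside 348 of 24457 other H3K27ac peaks found only in H69M (1.42%). At sites methylated in H69M this held for 28 of 250 (11.2%, interval 7.57 to 15.8), beside 60 of 8373 (0.717%). The sets compared are unlike. The sites were chosen for overlapping H3K27me3 of the other line, and their H3K27ac peaks were longer. Median widths were 1488 bp beside 804 bp, and 944.5 bp beside 632 bp. The part of width and of the choice in these shares was not tested. An H3K27ac peak of this kind has H3K27me3 of its own line next to, and not at, the exchanged piece, as the rule asks only for the overlapping bases. Within 10 kb of the site's centre, neither H3K27ac of the methylated line nor H3K27me3 of the acetylated line was found at 110 of 282 and 132 of 250 sites.

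The methylated pieces lay among others of their line. A further H69M H3K27me3 peak was within 1000 bp of 309 of 405 pieces (76.3%), beside 50.9% of the H69M-only H3K27me3 peaks that were not exchanged. For pieces methylated in H69 this was 162 of 348 (46.6%), beside 27.1%. The distance to the next such peak had a median of 0.186 kb in H69M and 1.20 kb in H69, beside 0.952 kb and 3.58 kb. Other exchanged pieces at the same H3K27ac peak count as neighbours here. At least 2 pieces lay at 100 of 250 sites methylated in H69M and at 51 of 282 methylated in H69. By this distance the exchanged pieces lay closer to others of their line than other line-only peaks did. The excess did not reach 50 kb. Within that distance a neighbour was found for 91.9% of pieces methylated in H69M, beside 94.1%. For pieces methylated in H69 this was 88.2%, beside 88.2%. Whether the pieces belong to broad domains of H3K27me3 was not tested.

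H3K27me3 of the other line was also near many pieces, and within 5000 bp the directions parted. It lay within 5000 bp of 183 of 348 pieces methylated in H69 (52.6%), close to the 55.9% of other H69-only peaks. For pieces methylated in H69M it lay within 5000 bp of 117 of 405 (28.9%), beside 51.6%. The median distance was 4.01 kb and 24.5 kb, beside 3.42 kb and 4.52 kb. H3K27ac of the methylated line was far away in both directions, with medians of 54.6 kb and 66.7 kb, beside 48.1 kb and 56.2 kb. Counting both, 159 of 348 (45.7%) and 266 of 405 (65.7%) pieces had no H3K27me3 of the other line and no H3K27ac of their own within 5000 bp, beside 39.9% and 44.4%. At 1000 bp the order turned round for pieces methylated in H69, with 65.2% beside 68.1%, and for pieces methylated in H69M it was 81.0% beside 70.6%. The 1 bp limit of the rule bears on these distances, which are given as a description.

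**Figure D4:**
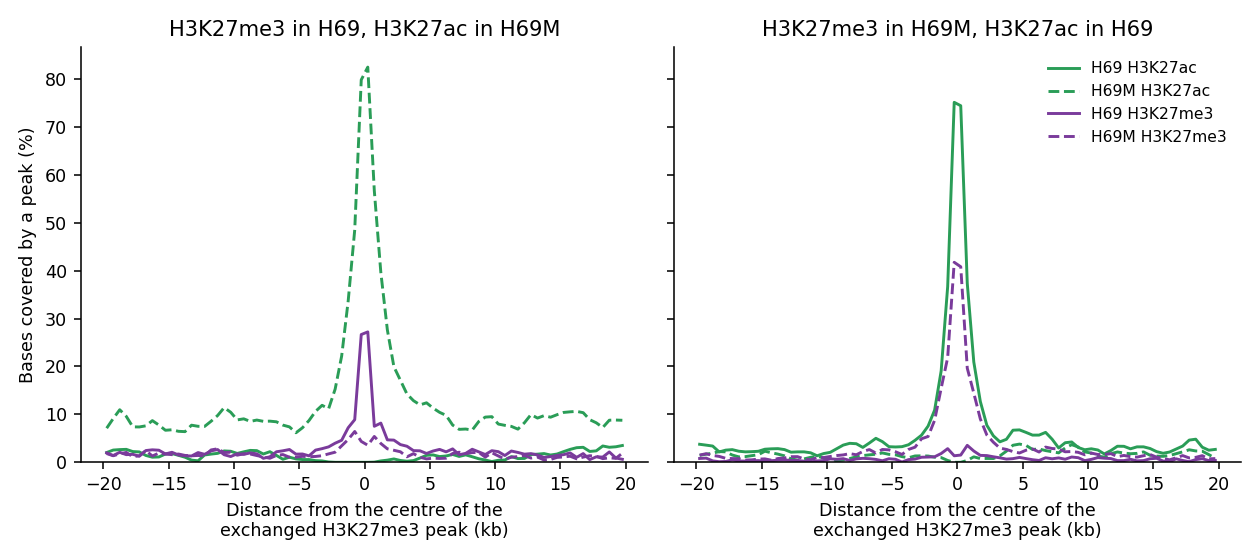
Mean share of bases covered by a peak (y axis, percent) in 500 bp bins out to 20 kb from the centre of the exchanged H3K27me3 peak (x axis), for sites methylated in H69 (left) and in H69M (right), one line per library. The central rise of the green and purple lines follows from the rule. Outside it, H69M H3K27ac stays at 8.61% on the left, above the other 3 libraries. That level is no separate result, as the pieces were chosen for lying on an H69M H3K27ac peak.

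Beyond the sites themselves the acetylated line had more H3K27ac. The pieces were chosen for lying on an H3K27ac peak of that line, and the other line-only peaks were not. Flanks of other line-only H3K27ac peaks were not computed, so these values are a description and no separate result. From 10 to 20 kb on either side of pieces methylated in H69, H69M H3K27ac covered 8.61% of bases and H69 H3K27ac 1.89%. Around other H69-only H3K27me3 peaks the values were 2.61% and 1.41%. Around pieces methylated in H69M, H69 H3K27ac covered 2.71% and H69M H3K27ac 1.60%, beside 1.05% and 1.58%. H3K27me3 was sparser at this distance than around other line-only peaks. It covered 1.67% in H69 and 1.41% in H69M around pieces methylated in H69, beside 2.15% and 2.95%, and 0.443% in H69 and 1.07% in H69M around pieces methylated in H69M, beside 2.17% and 4.53%.

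Line-only methylated peaks were more densely placed on H3K27ac of the other line than on other H3K27ac. Centres of H69-only H3K27me3 peaks numbered 13.0 per Mb of H3K27ac found only in H69M (326 centres in 25.03 Mb), 4.06 per Mb of H69M H3K27ac shared by the lines and 4.42 per Mb of H3K27ac found only in H69. Centres of H69M-only H3K27me3 peaks numbered 54.9 per Mb of H3K27ac found only in H69 (360 centres in 6.56 Mb), 9.97 per Mb of shared H69 H3K27ac and 16.5 per Mb of H3K27ac found only in H69M. H3K27me3 peaks found in both lines lay at similar density on either kind of line-only H3K27ac. Those of the H69 list numbered 10.3 per Mb of H69M-only and 9.61 per Mb of H69-only H3K27ac, and those of the H69M list 10.9 and 8.85. On H3K27ac shared by the lines they were sparser. The H69 list had 2.45 per Mb of shared H69M H3K27ac, and the H69M list 2.40 per Mb of shared H69 H3K27ac. A higher density on line-only than on shared H3K27ac was therefore not particular to line-only H3K27me3. The densities of 13.0 and 54.9 count members of the rule and are no separate evidence.

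Exchange was uneven over the chromosomes. Sites methylated in H69 took the highest shares of H69-only H3K27me3 peaks on chromosome 2 (9 of 148, 6.08%, interval 2.82 to 11.2), chromosome 3 (18 of 347, 5.19%) and chromosome 4 (6 of 116, 5.17%), where few such peaks lay. The largest number lay on chromosome 6, with 45 of 978 (4.60%, interval 3.38 to 6.11). The shares were low on chromosome 18, with 8 of 847 (0.945%), and chromosome 20, with 3 of 356 (0.843%). Lower still were chromosome 10, where few such peaks lay too, with 1 of 140 (0.714%), and chromosome 16, with 4 of 594 (0.673%). Chromosome X had 0 of 67, which allows a share of up to 4.48% when the limit is set at 3 counts of the total, and 5.36% by the exact interval drawn in the plot by chromosome. Sites methylated in H69M took 27 of 628 H69M-only H3K27me3 peaks on chromosome 15 (4.30%, interval 2.85 to 6.19) and 38 of 1104 on chromosome 9 (3.44%, interval 2.45 to 4.69). On chromosome 9, 7 of the 38 lay within 2 Mb of its longest stretch without any peak, and without that ground it had 31 of 1063 (2.92%). Chromosome 19 stood at the other end, with 4 of 3734 (0.107%, interval 0.0292 to 0.274).

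Chromosome 19 differed by direction. It held 43 of the 348 pieces methylated in H69 (12.4%), fewer than its 15.55% of all H69-only H3K27me3 peaks. Of its 494 H3K27ac peaks found only in H69M, 30 were exchange sites (6.07%), the highest share of any chromosome in that direction. In the opposite direction 4 of 274 H3K27ac peaks found only in H69 were exchange sites (1.46%), although 3734 H69M-only H3K27me3 peaks lay on this chromosome, more than on any other. H69-only H3K27ac covered 0.215 Mb of it and H69M-only H3K27ac 0.573 Mb.

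**Figure D5:**
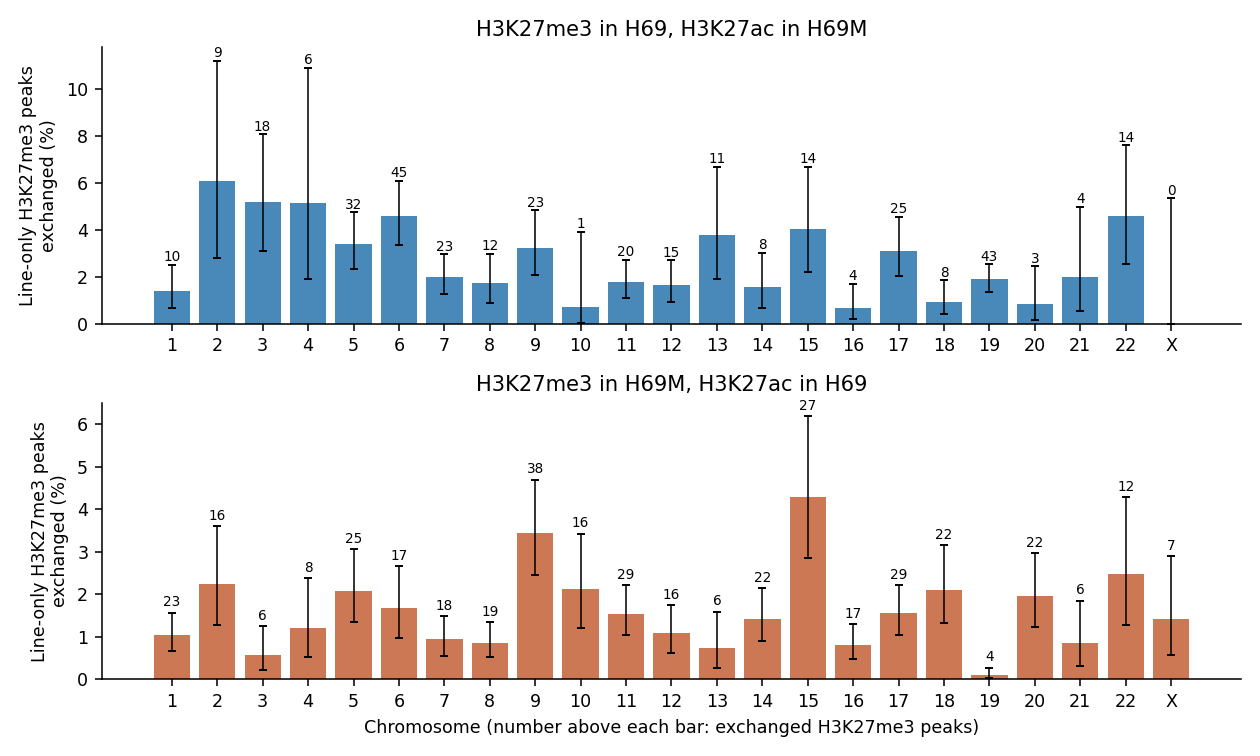
Share of line-only H3K27me3 peaks that were exchanged on each chromosome (bars, percent of the line-only peaks), with exact 95% binomial intervals and the number of exchanged peaks above each bar; the y axes differ. Chromosome 19 stands at 1.90% for sites methylated in H69 (upper) and at 0.107% for sites methylated in H69M (lower), where chromosome 15 is highest with 4.30%.

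Members fell in many bins of the chromosomes. Pieces methylated in H69 fell in 204 bins of 1 Mb and pieces methylated in H69M in 196, and 19 bins held both kinds. No such count over all line-only peaks is given here, so neither the spread nor the 19 shared bins can be judged against a background. The fullest bin for pieces methylated in H69M, chromosome 15 from 60 to 61 Mb, held 11 at 5 H3K27ac peaks, out of 14 H69M-only H3K27me3 peaks in the bin. Their H3K27me3 scores ran from 52.4 to 367.9 and the H3K27ac scores in H69 from 91.5 to 868.2. H69 H3K27me3 covered 0.205 kb of this bin and H69M H3K27me3 3.19 kb, while H69 H3K27ac took up 24.2 kb and H69M H3K27ac 40.9 kb. Over all 23 chromosomes H3K27ac peaks took up 48.2 Mb in H69 and 76.8 Mb in H69M, and H3K27me3 peaks 4.91 Mb and 7.96 Mb, and the covered lengths of all bins are to be read beside these.

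Chromosome 18 from 45 to 46 Mb also held 11 pieces methylated in H69M, out of 23 H69M-only H3K27me3 peaks. They lay at 3 H3K27ac peaks with scores of 669 to 2888. In this bin H69 H3K27ac took up 65.4 kb and H69M H3K27ac 20.9 kb. Chromosome 17 from 41 to 42 Mb held 8 pieces within 7.64 kb, at 3 H3K27ac peaks, out of 66 H69M-only H3K27me3 peaks. Chromosome 16 from 1 to 2 Mb held 8 at 6 weak H3K27ac peaks, none above 111.8, out of 128 H69M-only H3K27me3 peaks. Chromosome 17 from 48 to 49 Mb held 7 at 4 H3K27ac peaks, out of 38 H69M-only H3K27me3 peaks.

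For pieces methylated in H69 the fullest bin was chromosome 19 from 41 to 42 Mb, with 8 pieces at 4 H3K27ac peaks out of 73 H69-only H3K27me3 peaks. H3K27ac covered 43.6 kb of it in H69 and 70.6 kb in H69M, and H3K27me3 24.4 kb and 23.8 kb. Chromosome 9 from 137 to 138 Mb held 7 pieces, out of 54 H69-only H3K27me3 peaks. Chromosome 22 from 30 to 31 Mb held 6 within 32.7 kb, out of 24 H69-only peaks, and its 4 H3K27ac peaks scored 76.7 to 3100. Chromosome 6 from 30 to 31 Mb held 6 spread over 626 kb, out of 76 H69-only H3K27me3 peaks. Their H3K27me3 scores ran from 55.9 to 127.7 and the H3K27ac scores from 145.2 to 1723. In that bin H69 H3K27ac took up 46.6 kb and H69M H3K27ac 83.5 kb. Chromosome 7 from 0 to 1 Mb held 6, out of 38 H69-only H3K27me3 peaks. There H3K27me3 covered more in H69M (48.3 kb) than in H69 (24.2 kb) even though the pieces were found only in H69.

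On unplaced contigs the rule found no site, and the limits given are 3 counts of the total. In H69 it took 0 of 18 line-only H3K27me3 peaks, which allows a share of up to 16.7%, and in H69M 0 of 568, which allows up to 0.528%.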

How the data were processed

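The members and the rules for naming sites and bins were chosen with earlier results of these data known. The deposited lists give a position and a score per peak; each came from 1 library. The authors' name for each peak carries the word MACS. For MACS, no version, setting or control is given in the sources used here. Bowtie2, SAMtools 0.1.19 and hg19 are named in the submitters' processing notes. Overlaps, distances and covered lengths were computed in Python 3.11.15 with numpy 2.4.6 and pandas 2.3.3, and exact (Clopper-Pearson) 95% intervals with SciPy 1.17.1; intervals cover counting error only and treat neighbouring peaks as independent. The overlap procedure was tested on simulated peaks. Coordinates are 1-based. Per direction the named sites are the 10 with the highest H3K27me3 score, the 10 with the highest H3K27ac score, the 5 with most exchanged peaks, the 5 with the longest overlap and the 5 fullest bins of 1 Mb, 23 and 24 sites in all, of which those that add a value are described. The gene tables at hand lie on another assembly, so gene context, marker genes and sequences were not used here.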

Additional observations from a re-analysis of the deposited data

How the results depend on the processing

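The main limits are 1 library per line and mark, unknown depth, lists of unequal size and an undefined score. A peak just under the caller's limit counts as missing. No paired analysis was possible because each group holds 1 library and no test was made. The planned windows around gene starts were not run, as no annotation of the files' build was at hand. Under all 7 changed settings 9 of 282 sites methylated in H69 and 44 of 250 methylated in H69M were still exchange sites.

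Values are given for sites methylated in H69 first. With H3K27me3 scores of 100 or more in both lines the exchanged peaks numbered 74 and 176, which were 5.33% and 3.36% of line-only H3K27me3 peaks and lay at 0.259% and 1.54% of line-only H3K27ac peaks. With H3K27ac scores of 100 or more the shares of H3K27ac peaks became 1.66% and 4.58%, and the share of H69M-only H3K27me3 peaks 1.12%. With lists cut to equal sizes the shares of H3K27me3 peaks were 2.05% and 2.11% and those of H3K27ac peaks 1.71% and 2.06%; the cause was not tested. Asking for 50% of the H3K27me3 peak gave 1.17% of H69M-only H3K27me3 peaks. When line-only peaks had to be 1000 bp clear of the other line, 225 peaks methylated in H69 were left, at 0.859% of H3K27ac peaks. At 5000 bp, 159 and 261 were left, which were 0.739% of H69M-only H3K27ac peaks and 1.75% of H69M-only H3K27me3 peaks. Pieces clear of any counterpart made up 65.2% and 81.0% at 1000 bp, beside 68.1% and 70.6% of other line-only peaks. At 20 kb they made up 27% and 42.0%, beside 16.9% and 23.3%. Neighbours in the same line were found for 66.4% (H69) at 5000 bp, 74.1% and 87.7% at 10 kb, and 88.2% and 91.9% at 50 kb. Among other line-only peaks these were 56.1% (H69), 68.3% and 82.7%, and 88.2% and 94.1%. Neighbours in the other line were found for 52.6% and 28.9% at 5000 bp, 58.9% and 35.3% at 10 kb, and 75.3% and 59.5% at 50 kb. Among other line-only peaks these were 55.9% and 51.6%, 66.0% and 62.1%, and 83.9% and 80.1%. The other 23 of 54 values stayed within the range set for them.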
